A study of Mus musculus with 24 samples.

Results

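The 5 diaphragm libraries numbered 3, 6 and 9 and numbered 2 and 8 were compared, which are 5 of the 7 usable diaphragm libraries and of the 16 usable libraries of the series. All are RNA sequencing libraries of macrophages sorted from the diaphragm, the breathing muscle below the lungs. The other usable libraries are diaphragm 1 and 7 and 9 libraries from dura, the tough outermost layer of the meninges. The split into 3 against 2 libraries was chosen on measured values of these same libraries, namely the levels of Ccr2, Ccr7, Marco and Timd4, so differences along it are given as descriptions with no test. Columns of the same number with and without an added prefix were summed. Diaphragm columns 4 and 5 held 2115 and 1496 counts in all and were left out, whereas the shallowest library kept held 11053351.

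Every mouse was labelled wild-type C57BL/6, 17 weeks old and at steady state. The series title mentions reconstituting RAG-1 deficient mice with T cells, which no label of these samples does. The labels list 15 diaphragm samples in 3 subsets called C1, C2 and C3. The sources used here give neither the sort gates behind those names nor a link from the numbered columns to a subset, so the libraries are called by their numbers. Whether they came from separate animals is not stated either, and the spread between them may be technical.

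Tissue macrophages come from a self-maintaining resident pool and from blood monocytes that enter the tissue. CCR2 is the chemokine receptor by which classical monocytes leave the marrow, and MHC class II molecules present peptides from engulfed material to CD4 T cells. TIMD4 binds phosphatidylserine on dying cells and marks long-lived resident macrophages in many mouse tissues. MARCO is a scavenger receptor for bacteria and particles, and CCR7 guides mature dendritic cells towards lymph nodes.

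Libraries 3, 6 and 9 held 11053351 to 30132295 counts (median 24333191), and libraries 2 and 8 held 23498989 and 23034792. Library 6 was the shallowest of the 7 and came from 1 column only. In summed fibroblast genes libraries 1 and 7 stood apart from the other 5, at 22200 and 11300 CPM against 887 to 1560 CPM. CPM are counts in every 1000000 of a library, here after TMM scaling. The general macrophage genes Csf1r, Adgre1 and C1qa were abundant in all 7 libraries. Csf1r, the receptor for the macrophage growth factor CSF1, had 3069, 2976 and 3264 CPM in libraries 3, 6 and 9, against 4659 and 4759 CPM in libraries 2 and 8. Adgre1, the gene of the F4/80 antigen, had 1121, 1043 and 1133 CPM in 3, 6 and 9, against 1744 and 1536 CPM in 2 and 8. Both groups thus expressed genes of the labelled cell type.

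Across 6696 genes whose mean reached 20 CPM in either group, the median absolute log2 difference between 2 libraries was 0.193 to 0.212 within 3, 6 and 9 and 0.163 between 2 and 8. Across the groups it was 0.296 to 0.353. Library 9 was the one of the 3 that lay closest to 2 and 8. Libraries 1 and 7 lay 0.245 to 0.3 from 2 and 8 and 0.375 to 0.418 from 3, 6 and 9.

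Ccr2 (ENSMUSG00000049103, GRCm38 chromosome 9, 124101950 to 124113557, plus strand) was at 765.1, 974.1 and 972.9 CPM in libraries 3, 6 and 9, against 121.3 and 122.4 CPM in 2 and 8. Libraries 1 and 7 were lower still, at 18.57 and 22.61 CPM, so the 3 sets of libraries did not overlap. The difference of mean log2 CPM was 2.88, and the means were 904 ± 120 (SD, n = 3) and 121.9 ± 0.819 (n = 2). In bulk RNA, fewer cells with a transcript and less of it per cell cannot be told apart.

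Ccr7 (ENSMUSG00000037944, chromosome 11, 99144196 to 99155077, minus strand) followed the same order. Its level was 230.1, 269.3 and 196.9 CPM in libraries 3, 6 and 9, against 40.53 and 19.49 CPM in 2 and 8, and 0 and 4.128 CPM in 1 and 7, a log2 difference of 3.03 between the first 2 sets.

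Marco (ENSMUSG00000026390, chromosome 1, 120474538 to 120505024, minus strand) ran the other way and was close to absent from 3, 6 and 9. It was at 1.065, 1.518 and 1.677 CPM there, 85 counts in all, against 423.4 and 387.8 CPM in 2 and 8, with libraries 1 and 7 at 144.6 and 366.6 CPM. The log2 difference was -8.09. Timd4 (ENSMUSG00000055546, chromosome 11, 46810800 to 46844332, plus strand) was at 38.25, 50.76 and 48.11 CPM in 3, 6 and 9, against 527.6 and 564.4 CPM in 2 and 8 and 328.2 and 441 CPM in 1 and 7. Unlike Marco it was clearly present in every library, and its log2 difference was -3.59.

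**Figure D1:**
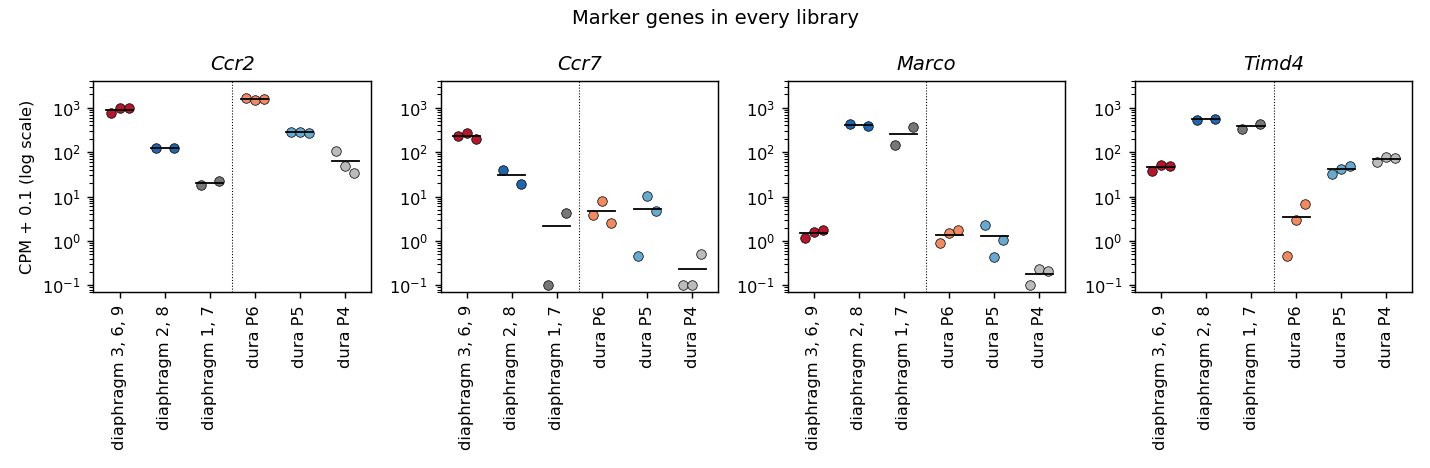
Levels of Ccr2, Ccr7, Marco and Timd4 in each of 16 libraries as CPM + 0.1 on a log axis, with diaphragm left of the dotted line and dura right of it. Points are libraries and bars are group means. Ccr2 runs 3, 6, 9 above 2, 8 above 1, 7, and P6 above P5 above P4, whereas Marco is high in diaphragm 2, 8, 1 and 7 and at most 2.199 CPM in dura.

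Of 15189 genes kept after a filter on low counts, 833 were higher in libraries 3, 6 and 9 than in 2 and 8, counting genes whose groups did not overlap and whose mean log2 CPM differed by at least 1. That is 5.48% of the genes kept. A further 1408 (9.27%) were lower by the same rule, and 2413 without library 2. The groups were chosen for genes of this contrast, so these shares only give the scale for the lists that follow. The median difference over all genes kept was -0.07. Among the genes with at least 20 CPM in the higher group, 26 were lower by a log2 difference of 5 or more and 0 were higher by as much.

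The 12 highest of the counted genes with at least 20 CPM were Ltb4r1, Ccl17, Gpr171, Flt3, Klrb1b, Hr, Il1r2, Slc27a3, Adgrg5, Napsa, Cd226 and Adam8, with log2 differences from 4.36 to 3.23. Ltb4r1, the receptor for leukotriene B4, was at 69.92, 59.87 and 40.33 CPM in libraries 3, 6 and 9, against 3.145 and 2.17 CPM in 2 and 8. Ccl17, a chemokine of activated dendritic cells and macrophages that attracts T cells through CCR4, was at 67.12, 32.92 and 19.43 CPM in 3, 6 and 9, against 1.834 and 1.606 CPM in 2 and 8, and had no count in 1 or 7. Its level varied more among 3, 6 and 9 than that of the other leading genes, with library 3 the highest. Flt3, a cytokine receptor needed for dendritic cell development, was at 39.06, 47.63 and 28.29 CPM in 3, 6 and 9, against 2.97 and 2.04 CPM in 2 and 8. Klrb1b, a C-type lectin receptor gene of the natural killer gene complex, was at 57.28, 58.54 and 35.68 CPM, against 3.625 and 2.995 CPM. Napsa, an aspartic protease gene, was the evenest of the 12, at 106.4, 103.8 and 114.1 CPM in 3, 6 and 9, against 11.22 and 8.03 CPM in 2 and 8.

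The 12 lowest were Clec4f, Cd5l, C6, Paqr9, Stab2, Marco, Fpr1, Vsig4, Pcolce2, Slc40a1, Fabp7 and Clec1b, with log2 differences from -11.75 to -6.95. Clec4f (chromosome 6, 83644542 to 83656187, minus strand), a C-type lectin that in mouse is a classical marker of Kupffer cells, the macrophages of the liver sinusoids, was at 1.882, 1.328 and 0.172 CPM in libraries 3, 6 and 9, against 3037 and 3152 CPM in 2 and 8. The means differ 2740-fold, and the 3 libraries together held 71 counts against 142164 in the 2. Cd5l, a secreted protein of tissue macrophages that modulates lipid metabolism, was at 1.42, 0.6641 and 2.322 CPM in 3, 6 and 9, against 3519 and 3006 CPM in 2 and 8. Both genes were therefore near the floor of detection in 1 group and plentiful in the other.

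Vsig4, a receptor for complement C3 fragments, was at 2.202, 5.692 and 8.598 CPM in libraries 3, 6 and 9, against 995.9 and 949.1 CPM in 2 and 8. Slc40a1, which encodes ferroportin, the iron exporter of macrophages, was at 9.02, 7.685 and 9.587 CPM, against 1134 and 1317 CPM. C6, a component of the membrane attack complex, was at 0.2131, 0 and 0.04299 CPM, against 270.3 and 287.5 CPM. Libraries 1 and 7 held all 12 of these genes at levels above those of 3, 6 and 9. For example, Clec4f was at 392.7 and 979.4 CPM and Vsig4 at 357 and 454.1 CPM in 1 and 7. Stab2, a receptor that clears hyaluronan and is best known from sinusoidal endothelium, was the one of the 12 that was higher in 1 and 7 (133.4 and 143.1 CPM) than in 2 and 8 (83.64 and 68.36 CPM), against 0.03551, 0 and 0.8598 CPM in 3, 6 and 9.

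**Figure D2:**
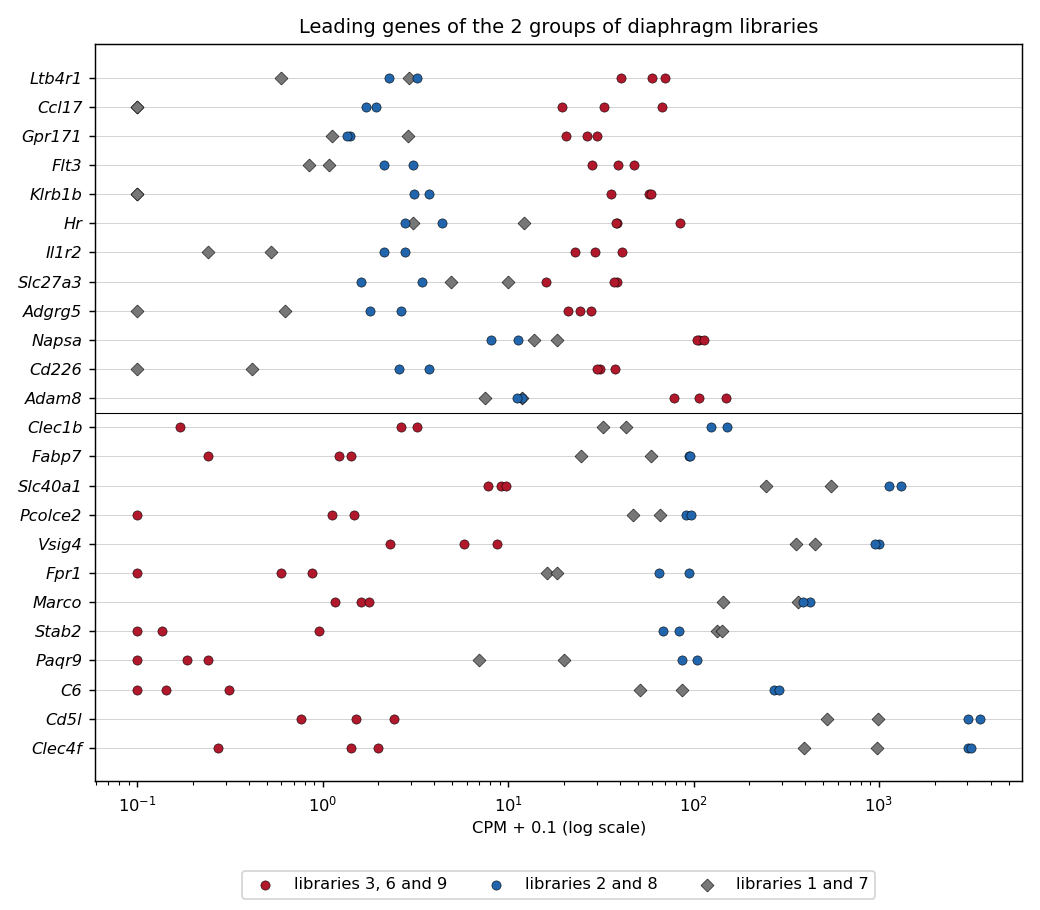
Levels of the 12 highest and 12 lowest counted genes in each of the 7 diaphragm libraries, as CPM + 0.1 on a log axis, ordered by log2 difference. Points of libraries 3, 6 and 9 lie right of those of 2 and 8 in the upper 12 genes and left of them in the lower 12, and Clec4f spans 0.172 to 3152 CPM.

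Several of these leading genes, among them Clec4f, Cd5l, Vsig4, Marco, C6 and Slc40a1, are known as genes of Kupffer cells in mouse, as is Timd4. This grouping was made after the values were seen, and no cell type is assigned from it. Kupffer cells are liver macrophages, and the samples are labelled as diaphragm. Of the hepatocyte genes, Alb, the gene of serum albumin, had 173, 256.9 and 469.2 CPM in libraries 3, 6 and 9, against 267.4 and 494.7 CPM in 2 and 8, so the groups overlapped. Libraries 1 and 7 had 259.2 and 512.4 CPM of it, and it reached no more than 0.2676 CPM in any of the 9 dural libraries, so all 7 diaphragm libraries held this liver transcript and the dural ones hardly any. Of 8 liver genes, Trf, the transferrin gene, was the 1 counted as lower, at 57.99, 67.27 and 66.68 CPM in 3, 6 and 9 against 138 and 121.2 CPM in 2 and 8, and 0 were higher. Its log2 difference of -1.02 was -0.95 without library 3 and -0.92 without library 2. Unlike Alb, Trf was also plainly present in every dural library, at 93.51 to 193.3 CPM. The summed liver list was at 277 to 666 CPM in 3, 6 and 9 and at 489 and 763 CPM in 2 and 8. The part of liver cells in the differences was not tested.

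Of 21 resident macrophage genes, 0 were higher and 16 were lower in libraries 3, 6 and 9, with a median log2 difference of -1.40 beside -0.07 over all genes. Their sum was 7820, 6560 and 7350 CPM in 3, 6 and 9, against 17200 and 17800 CPM in 2 and 8. Fcna, a ficolin that starts the lectin pathway of complement, was at 21.34, 15.65 and 36.5 CPM, against 1240 and 1620 CPM. Cd209f and Cd209g, lectin genes of the SIGN-R family, had log2 differences of -5.52 and -4.87. Timd4, which helped to choose the groups, was among the 16 lower. Members that vary together with it follow the same split, so the list is a description and no separate support. Of 16 pan-macrophage genes, 0 were higher and 3 were lower (median -0.57), namely Mertk, Ctsb and Apoe.

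Classical monocyte genes had more higher members. Of 18, 10 were higher and 1 was lower, with a median of 1.45. Ccr2, which helped to choose the groups, was among the 10 higher. The sums were 17400, 17300 and 17600 CPM in 3, 6 and 9, against 12400 and 12900 CPM in 2 and 8. Lyz2, named after its value was seen, made up most of each sum and differed little (log2 difference 0.12). Thbs1, an adhesive matrix glycoprotein of monocytes and platelets, was at 672, 695.4 and 757.6 CPM, against 106.3 and 98.31 CPM. Chil3, a chitinase-like protein of monocytes and alternatively activated macrophages, was low everywhere, at 9.446, 3.036 and 14.49 CPM against 0 and 2.04 CPM. Its log2 difference of 4.13 was 1.83 without library 2. Ly6c2, a surface antigen of classical monocytes, was at 4.794, 23.24 and 16.64 CPM in 3, 6 and 9 and at 2.533 and 3.386 CPM in 2 and 8, so library 3 lay near the lower group.

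Of 18 conventional dendritic cell genes, 11 were higher and 1 was lower (median 1.31, sums of 2460 to 2530 CPM in 3, 6 and 9 against 1680 and 1710 CPM in 2 and 8). Dpp4, a peptidase on conventional dendritic cells, was at 39.84, 41.18 and 41.96 CPM against 7.119 and 3.472 CPM. It was as high in libraries 1 and 7, at 40.05 and 42.65 CPM. Tnip3, an inhibitor of NF-kappaB signalling, was at 401.6, 417.9 and 360.4 CPM in 3, 6 and 9, against 81.46 and 42.36 CPM in 2 and 8. Zbtb46, a transcription factor that defines these cells, was not higher in 3, 6 and 9, at 11.22, 13.38 and 10.32 CPM against 14.37 and 16.1 CPM in 2 and 8 (log2 difference -0.39). Xcr1 and Clec9a, markers of type 1 conventional dendritic cells, were counted as higher (1.31 and 1.14) but were at no more than 14.57 CPM in any library. Without library 8 their differences were 0.95 and 0.91, and that of Clec9a was 0.74 without library 9, all below the threshold.

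Migratory dendritic cell genes were mixed. Of 22, 7 were higher and 2 were lower (median 0.46, sums of 4910 to 5670 CPM in 3, 6 and 9 against 4290 and 3610 CPM in 2 and 8). Besides Ccl17 and Ccr7, Cacnb3, a calcium channel subunit, was higher, with a log2 difference of 2.36 at 3.095 to 11.57 CPM in 3, 6 and 9. Ccr7 helped to choose the groups. Cd200, an inhibitory ligand for myeloid cells, was lower, at 2.379, 4.174 and 1.892 CPM against 14.89 and 18.19 CPM, and was highest in libraries 1 and 7 (62.06 and 48.9 CPM). Fscn1, the actin bundler that typically marks mature dendritic cells, was at 85.12, 84.15 and 72.91 CPM in 3, 6 and 9 and at 126.2 and 117.8 CPM in 2 and 8.

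MHC class II presentation was the list with the largest share of higher genes among 21 pathway lists. Of 12 genes, 7 were higher and 0 were lower, with a median log2 difference of 1.04. Their sum was 89200, 87500 and 83900 CPM in libraries 3, 6 and 9, against 45600 and 43900 CPM in 2 and 8 and only 3200 and 3710 CPM in 1 and 7. The 3 sets of libraries therefore stood in the same order as for Ccr2. H2-Ab1 (chromosome 17, 34257689 to 34269419, plus strand), a chain of the peptide-binding I-A molecule, was at 17090, 16400 and 15870 CPM in 3, 6 and 9, against 7896 and 7724 CPM in 2 and 8 and 299.8 and 373.9 CPM in 1 and 7. H2-Oa and H2-Ob, the chains of the H2-O molecule that restrains peptide loading, had log2 differences of 2.38 and 1.48. H2-DMb2 and H2-DMb1, chains of the peptide exchange factor H2-M, had 1.77 and 1.10, the second of which was 0.93 without library 8. The other 2 higher genes, H2-Eb1 (1.05) and the invariant chain gene Cd74 (1.04), lay close to the threshold and were at 0.99 and 0.98 with library totals in place of TMM factors. Ciita, the master activator of the class II genes, did not reach the threshold, at 158.3, 137.2 and 175.5 CPM against 92.29 and 105.5 CPM (log2 difference 0.66). H2-Aa (0.83) did not reach it either, although its groups did not overlap, with 12850, 13180 and 12960 CPM against 7802 and 6884 CPM. Ctss, the protease that trims the invariant chain, overlapped, at 2607, 2621 and 3105 CPM against 2941 and 3044 CPM. Names beyond the 4 largest differences of this list were chosen after their values were seen.

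The promoters of MHC class II genes carry a conserved set of boxes, of which the Y box is an inverted CCAAT sequence bound by the factor NF-Y. The 120 bases before the annotated start are shown for 6 class II genes, of which the first 5 were counted as higher in 3, 6 and 9, from RefSeq on GRCm38.p6, written in the direction of transcription. Capitals mark TGATTGG, the letters of the Y box searched on both strands.
H2-Oa: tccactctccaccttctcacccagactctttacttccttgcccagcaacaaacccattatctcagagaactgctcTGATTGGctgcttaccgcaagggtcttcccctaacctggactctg
H2-Ob: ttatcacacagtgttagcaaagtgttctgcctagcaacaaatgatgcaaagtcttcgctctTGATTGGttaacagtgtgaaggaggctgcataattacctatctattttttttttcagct
H2-DMb1: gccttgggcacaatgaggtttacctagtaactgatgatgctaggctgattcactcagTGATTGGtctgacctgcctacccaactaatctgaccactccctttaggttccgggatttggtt
H2-DMb2: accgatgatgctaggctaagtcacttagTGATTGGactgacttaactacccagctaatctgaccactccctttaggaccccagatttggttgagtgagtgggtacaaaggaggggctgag
H2-Eb1: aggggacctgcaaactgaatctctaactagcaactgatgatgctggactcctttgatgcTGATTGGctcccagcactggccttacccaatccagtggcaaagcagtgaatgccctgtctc
H2-Aa: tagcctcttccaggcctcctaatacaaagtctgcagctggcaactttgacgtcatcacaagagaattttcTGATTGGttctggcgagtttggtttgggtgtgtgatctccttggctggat

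All 6 windows lie on chromosome 17, at chr17:34092259-34092378 for H2-Oa, chr17:34238785-34238904 for H2-Ob, chr17:34153071-34153190 for H2-DMb1, chr17:34145129-34145248 for H2-DMb2 and chr17:34305747-34305866 for H2-Eb1 on the plus strand, and at chr17:34287824-34287943 for H2-Aa on the minus strand. The motif began at position -45 before the start in H2-Oa, -59 in H2-Ob, -63 in H2-DMb1, -92 in H2-DMb2, -61 in H2-Eb1 and -50 in H2-Aa. Windows were shown or searched for 9 of the 12 list genes, and 7 of the 9 held the motif. Over all 32851 windows of the same length 5.15% held it. The motif was picked after these windows were seen, and a match is a description of the sequence, not of binding.

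MHC class I presentation differed little. Of 12 genes, 0 were higher and 0 were lower, with a median of -0.17. Psmb9, an immunoproteasome subunit, was at 104.4, 93.93 and 114.1 CPM in 3, 6 and 9 and at 135.7 and 123.4 CPM in 2 and 8. B2m, the light chain of class I molecules, was at 2716, 2913 and 3170 CPM and at 3792 and 3480 CPM. Both genes were slightly lower in 3, 6 and 9 without reaching a log2 difference of 1.

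Scavenger receptors and lectins were the pathway list with the largest share of lower genes. Of 18, 13 were lower and 1 was higher in libraries 3, 6 and 9 (median -1.81), with sums of 3440 to 3820 CPM against 11000 and 10500 CPM in 2 and 8. The lower genes include Marco, which helped to choose the groups. Besides Cd5l and Marco, Cd209f was at 9.02, 4.649 and 5.116 CPM in 3, 6 and 9, against 247.5 and 312.7 CPM in 2 and 8. Of 15 genes of iron and heme handling, 7 were lower and 0 were higher (median -0.75). They include ferroportin Slc40a1, Cp, which encodes the ferroxidase ceruloplasmin (40.13, 14.33 and 16.42 CPM against 127 and 115.2 CPM), and Spic, the transcription factor of iron-recycling macrophages in mouse (11.86, 13.28 and 18.1 CPM against 79.8 and 62.2 CPM). Of 13 genes of dying-cell uptake, 5 were lower and 2 were higher (median -0.33). Timd4, which helped to choose the groups, was among the 5 lower. The TAM receptor gene Mertk, which recognises dying cells through Gas6 and protein S, was at 49.72, 50.76 and 68.23 CPM in 3, 6 and 9, against 207.2 and 191.4 CPM in 2 and 8.

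Of 14 complement genes, 6 were lower and 1 was higher (median -0.61). C4b, a gene of the classical and lectin pathways, was at 26.81, 19.16 and 51.25 CPM in 3, 6 and 9, against 795.6 and 905.7 CPM in 2 and 8. C3, the central component, was at 360.3, 261.4 and 569.4 CPM, against 1489 and 2019 CPM. Itgax, the integrin chain CD11c that is also a dendritic cell marker, was the higher one, at 417.5, 415 and 439.2 CPM against 100.3 and 130 CPM in 2 and 8 and 12.51 and 6.809 CPM in 1 and 7. Of 8 Fc receptor genes, 2 were lower and 0 were higher, namely Fcgr4, an activating receptor for IgG, and Fcgrt, the neonatal Fc receptor (log2 differences of -1.31 and -1.21).

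Of 18 lysosomal and lipid handling genes, 7 were lower and 0 were higher (median -0.80), with sums of 16300 to 18800 CPM in 3, 6 and 9 against 36000 and 38000 CPM in 2 and 8. Apoe, which carries lipids between cells, was at 6602, 7256 and 8808 CPM in 3, 6 and 9, against 18000 and 19540 CPM in 2 and 8. Ctsd, a lysosomal protease, was at 833.6, 780.5 and 913.5 CPM, against 2345 and 2664 CPM. Of 16 genes of cholesterol synthesis and uptake, 4 were higher and 0 were lower (median 0.60). They include Fdft1, Fdps and Cyp51, all enzymes of sterol synthesis. Cyp51 (1.06) was at 0.98 without library 3 and 0.99 without library 9.

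Of 15 inflammatory cytokine genes, 5 were higher and 1 was lower (median 0.49). Il1b, which encodes the precursor of interleukin 1 beta, was at 3574, 4141 and 3602 CPM in 3, 6 and 9, against 1797 and 1412 CPM in 2 and 8 and 608.1 and 617.6 CPM in 1 and 7. Tnfsf14 (LIGHT) and Tnfsf9 (4-1BB ligand), members of the TNF family that act on T cells, had log2 differences of 2.29 and 1.57. Il6 did not separate, at 126.7, 174.8 and 136 CPM in 3, 6 and 9 and at 185.3 and 105 CPM in 2 and 8. It is named after its value was seen.

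Of 19 chemokine genes, 4 were higher and 4 were lower (median 0.42). Cxcl13, which draws B cells through CXCR5, was at 12.46, 24.29 and 32.2 CPM in 3, 6 and 9, against 926.8 and 1101 CPM in 2 and 8. Ccl8, a ligand of CCR8 in mouse, was at 3.232, 6.736 and 5.847 CPM, against 146.1 and 156.6 CPM. Ccl24 (eotaxin-2), which attracts eosinophils, had a log2 difference of -1.98. Of 14 chemokine receptors, 2 were higher, both of them genes the groups were chosen by, and 2 were lower.

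Of 16 interferon-stimulated genes, 6 were lower and 0 were higher (median -0.54). Irf7, the master regulator of type I interferon responses, was at 55.51, 80.07 and 88.09 CPM in 3, 6 and 9, against 432.2 and 394.3 CPM in 2 and 8 and 102.8 and 141.7 CPM in 1 and 7. Ifit3, a cytosolic antiviral protein, was at 6.996, 16.32 and 11.69 CPM in 3, 6 and 9, against 41.36 and 33.42 CPM in 2 and 8. For these genes libraries 2 and 8 were the high ones of the 7.

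Of 14 Toll-like receptor and adaptor genes, 2 were lower and 0 were higher. These were Tlr3, the sensor of double-stranded RNA (-1.23, and -0.95 without library 6), and Ly96, the TLR4 co-receptor MD-2 (-1.21). Of 14 NF-kappaB genes, 2 were higher and 0 were lower, with a median of 0.50. The adaptor gene Traf1 had a log2 difference of 2.17 and the kinase gene Map3k14 one of 1.06, which was 0.93 without library 6 and 0.95 without library 8. Of 16 genes of glycolysis and lactate export, 3 were higher and 1 was lower. Slc16a3, the lactate exporter MCT4, was at 96.7, 112.9 and 125.3 CPM in 3, 6 and 9, against 33.81 and 37.68 CPM in 2 and 8, and Slc2a1, the glucose transporter GLUT1, was at 161.4, 179.2 and 165.4 CPM, against 73.38 and 54.99 CPM. Hk3, a hexokinase of myeloid cells, was the lower one (log2 difference -1.45). Of 18 immediate early and stress genes, 0 were higher and 0 were lower.

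Of 16 cell cycle genes, 5 were higher and 0 were lower (median 0.64). Top2a, the topoisomerase of dividing cells, was at 100.7, 74.48 and 84.39 CPM in 3, 6 and 9, against 48.83 and 27.39 CPM in 2 and 8, a log2 difference of 1.23 that was 0.81 without library 8. Of 12 growth factor genes, 3 were higher and 3 were lower. Areg, the EGF receptor ligand amphiregulin, was at 163, 167.2 and 135.1 CPM, against 34.85 and 18.88 CPM, while Pdgfc and Bmp2 had log2 differences of -2.24 and -2.03. Of 14 genes of alternative activation, 3 were higher and 4 were lower. Of 20 lineage transcription factors, 2 were higher (Runx3 and Irf4) and 3 were lower. Nr1h3, the oxysterol receptor LXR alpha, was at 26.67, 27.32 and 39.64 CPM in 3, 6 and 9, against 269.3 and 280.4 CPM in 2 and 8, with libraries 1 and 7 in between at 45.81 and 94.76 CPM.

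**Figure D3:**
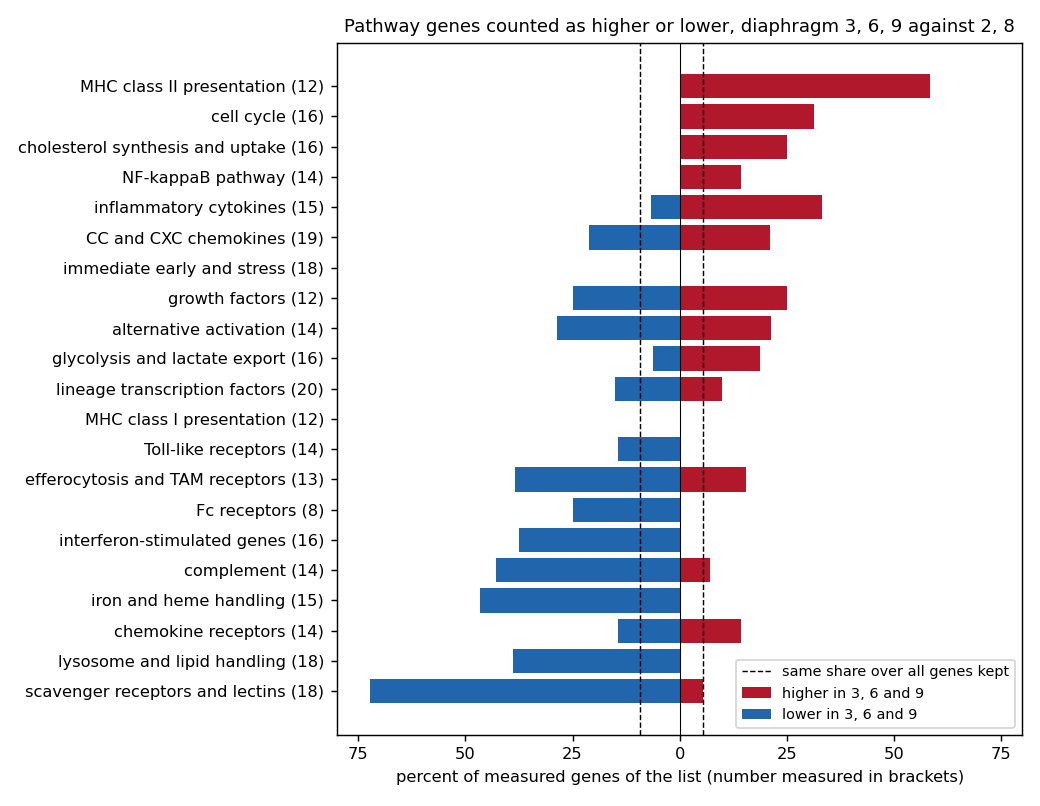
Share of the measured genes of each of 21 pathway lists counted as higher (right) or lower (left) in diaphragm libraries 3, 6 and 9 than in 2 and 8, ordered by median log2 difference. Dashed lines give the shares over all 15189 genes, 5.48% higher and 9.27% lower, and MHC class II presentation and scavenger receptors mark the extremes.

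Markers of other cell types were read in the same libraries. Of 12 fibroblast genes, 0 were higher and 0 were lower, with sums of 887 to 1560 CPM in libraries 3, 6 and 9 and 895 and 1360 CPM in 2 and 8. Of 10 endothelial genes, 0 were higher and 4 were lower, with sums of 53.5 to 186 CPM against 514 and 589 CPM. Most of the sum in 2 and 8 was Cdh5 (VE-cadherin), which mouse Kupffer cells also carry, at 26.21, 6.546 and 8.254 CPM in 3, 6 and 9, against 347 and 367 CPM in 2 and 8. Vwf, a defining endothelial gene, was at 17.65, 15.27 and 7.996 CPM, against 56.91 and 80.52 CPM, and at 1721 and 1594 CPM in libraries 1 and 7. Of 11 skeletal muscle genes, 1 was higher (Myh1) and 1 was lower (Ttn), with sums of 180 to 293 CPM against 223 and 134 CPM. Some genes of the endothelial list thus moved with the groups. Whether this was RNA of endothelial cells, and its part in the other differences, was not tested.

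Of 10 T cell genes, 3 were higher and 4 were lower, with sums of 67.7 to 101 CPM in 3, 6 and 9 against 30.6 and 23.1 CPM in 2 and 8. The defining gene Cd3e was at no more than 1.623 CPM in any of the 7 libraries, and the sums were mainly Cd2 and Il7r. Of 8 B cell genes, 0 were higher and 6 were lower, with sums of 255 to 332 CPM against 380 and 502 CPM. Cd79a, a chain of the B cell receptor complex, was at 0.9943, 0 and 1.935 CPM, against 3.887 and 4.427 CPM. Cd22, an inhibitory lectin of B cells, was at 2.45, 3.131 and 4.643 CPM, against 32.15 and 33.55 CPM. Of 4 neutrophil genes that passed the filter, of 10, 0 were higher and 2 were lower, with sums of 112 to 164 CPM against 763 and 1050 CPM. Nearly all of the sum in 2 and 8 was Mmp9, a matrix protease that macrophages also make, at 103.3, 70.78 and 130.8 CPM in 3, 6 and 9 against 715.6 and 971.2 CPM, while the defining gene S100a9 was at most 0.3931 CPM in any diaphragm library. Of 12 genes of large peritoneal macrophages, 2 were higher and 2 were lower, and their defining factor Gata6 was at 1.385, 0 and 1.548 CPM in 3, 6 and 9 and 3.101 and 3.429 CPM in 2 and 8, against 27.29 and 18.94 CPM in 1 and 7. Of 5 natural killer and innate lymphoid genes kept, of 10, 2 were higher (Il2ra and Il1rl1) and 0 were lower. Of 8 eosinophil and mast cell genes kept, of 10, 2 were higher (Tpsb2 and Kit) and 0 were lower, with sums of 15 to 70.2 CPM against 5.68 and 9.38 CPM and the highest value in library 6. Tpsb2, a mast cell tryptase, was at 2.131, 19.16 and 0.04299 CPM in 3, 6 and 9 and at 0 in 2 and 8, so library 9 hardly differed from 2 and 8. Of 7 mesothelial genes 2 were lower, and of 5 erythroid genes 0 were counted, all at sums of at most 8.25 CPM in the 5 libraries. The part of these cells in the differences was not tested.

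**Figure D4:**
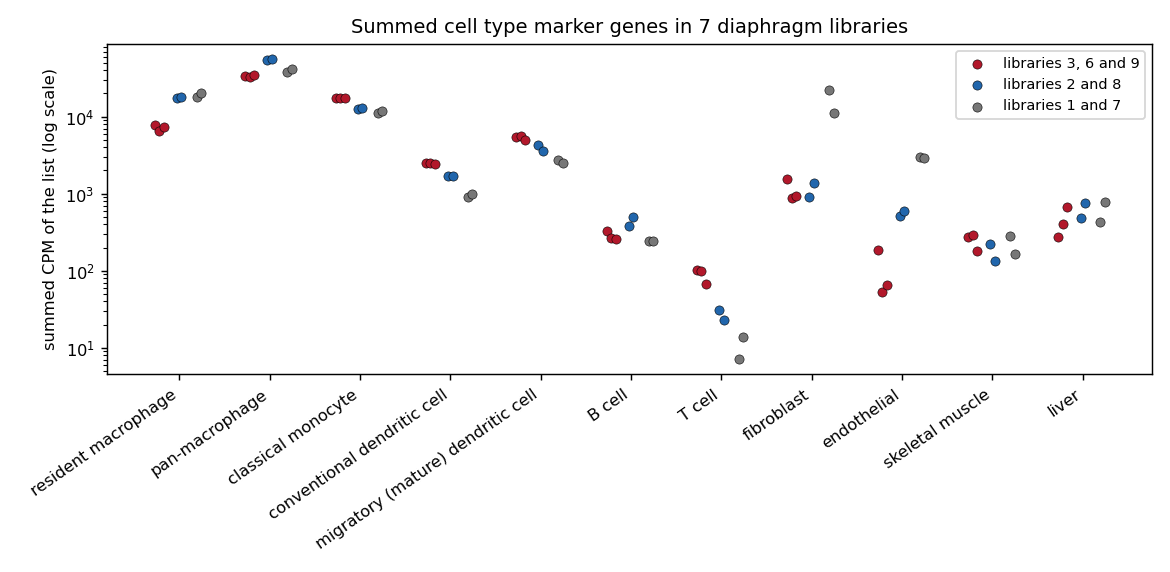
Summed CPM of 11 marker lists in each of 7 diaphragm libraries, on a log axis. Resident macrophage sums are 6560 to 7820 CPM in 3, 6 and 9 and 17200 and 17800 CPM in 2 and 8, and fibroblast sums are high in 1 and 7 only, at 22200 and 11300 CPM.

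Libraries 1 and 7 did not simply lie between the 2 sets. Their position is a description only, since keeping them apart from 2 and 8 was part of the choice of groups. Of the 833 genes higher in 3, 6 and 9, both were below all 5 libraries in 183 (22%), between the sets in 107 (12.8%) and above all 5 in 50 (6%). Of the 1408 lower genes, both were above all 5 in 488 (34.7%), between the sets in 238 (16.9%) and below all 5 in 12 (0.852%). Over all 15189 genes the shares were 12.4% below and 17.4% above.

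The same genes were then read in the dural libraries, which played no part in choosing the diaphragm groups. The dural columns carry the marks P4, P5 and P6, which the sources used here do not explain, with 3 libraries each at 10457920 to 24077834 counts. Each mark occurs with the numbers 1, 3 and 4, so the 9 libraries need not come from separate animals. P6 was compared with P5 by edgeR's quasi-likelihood test, a choice made with earlier results of these data known. Ccr2 stepped up from P5 to P6, as it did from diaphragm 2 and 8 to 3, 6 and 9. Genes shared by both comparisons are therefore no independent replication of the diaphragm differences. Of 13239 genes tested, 1110 (8.38%) were higher and 1189 (8.98%) were lower in P6 at a Benjamini-Hochberg adjusted p under 0.05. Without P5 number 4 the number of higher genes was 692, and without P5 number 3 it was 705, with 775 lower.

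Of the 833 genes higher in diaphragm libraries 3, 6 and 9, 638 could be tested in dura. Of these, 278 (43.6%) were also higher in P6 and 8 (1.25%) were lower, with a median log2 fold change of 0.92. Of the 1408 lower genes, 1131 were tested, 349 (30.9%) were lower in P6 and 14 (1.24%) were higher, with a median of -0.56. The small counts in the opposite direction moved most with the setting, the 8 becoming 3 or 4 without P5 number 3, P6 number 4 or P5 number 1, and the 14 becoming 24 with DESeq2. Over all genes tested in dura the median was 0.004.

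Ccr2 rose to 1699, 1516 and 1576 CPM in dura P6, against 289, 289.1 and 264.2 CPM in P5 and 34.65 to 106.6 CPM in P4 (log2 fold change P6 minus P5 of 2.53 ± 0.30 SE, edgeR adjusted p = 0.000127). Timd4 fell to 0.3471, 2.836 and 6.797 CPM in P6, against 31.31, 41.96 and 48.81 CPM in P5 (-3.54 ± 0.49, edgeR adjusted p = 0.000405). Neither gene had overlapping groups. Ccr7 was at 3.732, 7.698 and 2.382 CPM in P6 and at 0.3518, 10.43 and 4.729 CPM in P5, so its groups overlapped (-0.14 ± 0.92, edgeR adjusted p = 0.945). Marco was at most 2.199 CPM in any dural library (P6 minus P5 of 0.17 ± 0.83, edgeR adjusted p = 0.928). The 4 genes that chose the diaphragm groups were thus divided in dura, with 2 passing the test in the direction of the diaphragm difference.

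**Figure D5:**
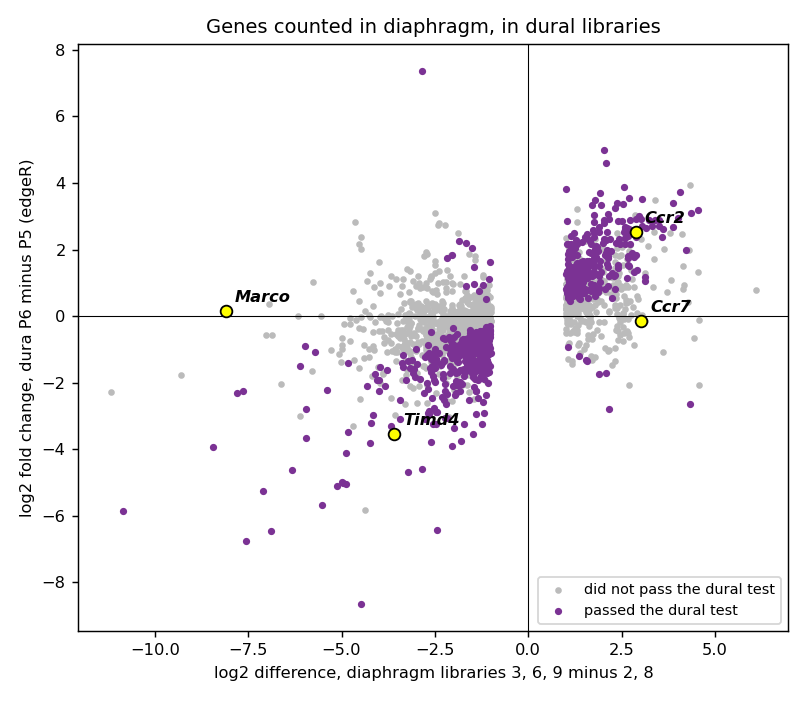
Log2 fold change of dura P6 minus P5 from edgeR against the log2 difference of diaphragm libraries 3, 6 and 9 minus 2 and 8, for genes counted in diaphragm and tested in dura. Purple genes passed the dural test. Ccr2 lies at 2.88 and 2.53 and Timd4 at -3.59 and -3.54, whereas Marco lies at -8.09 and 0.17 and Ccr7 at 3.03 and -0.14.

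Of the Kupffer-cell-associated genes, some were scarce in dura and others were not. Clec4f was too low to be tested there, at no more than 0.1668 CPM in any library, and Cd5l was at no more than 4.37 CPM. Timd4, given above, and Slc40a1 were plainly present in P5 and P4. Slc40a1 fell to 6.856, 8.346 and 7.638 CPM in P6, against 257.4, 312.1 and 318.2 CPM in P5 and 638.9 to 751.4 CPM in P4 (-5.26 ± 0.13, edgeR adjusted p = 3.51e-10). C6 also fell, to 0, 0.2431 and 0.1401 CPM in P6 against 7.828, 8.509 and 8.113 CPM in P5 (-5.85 ± 0.54, edgeR adjusted p = 1.82e-05). Of the 12 highest diaphragm genes, Ltb4r1, Gpr171, Flt3, Klrb1b, Slc27a3, Adgrg5, Napsa, Cd226 and Adam8 were higher in P6 as well, with edgeR adjusted p from 2.92e-05 for Napsa to 0.0242 for Gpr171. The call of Gpr171 was lost without any 1 of 4 dural libraries (edgeR adjusted p up to 0.104), and that of Adgrg5 without P5 number 3 (edgeR adjusted p = 0.0544). Hr and Il1r2 did not pass, and Ccl17 was too low to be tested.

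Resident macrophage genes were also lower in dura P6. Of 21, 19 fell and 1 rose in P6 (median -1.90). Cd209f fell to 8.852, 8.184 and 8.338 CPM in P6, against 396.9, 445.6 and 462.4 CPM in P5 (-5.66 ± 0.11, edgeR adjusted p = 2.99e-11). Cd163, the haptoglobin-haemoglobin scavenger receptor, fell to 165.9, 145.4 and 151.6 CPM, against 918.3, 1247 and 1424 CPM (-2.93 ± 0.14, edgeR adjusted p = 6.69e-08). Of the 18 scavenger receptor and lectin genes, 12 fell and 2 rose, and of the 15 iron genes 10 fell and 0 rose. Markers of other cell types also moved between these libraries. Of 12 fibroblast genes, 7 fell and 1 rose in P6 (median -1.02), with sums of 717 to 940 CPM in P6 against 1080 to 1320 CPM in P5. Of 6 tested eosinophil and mast cell genes, 3 fell and 0 rose, with sums of 4.2 to 7.29 CPM against 17.7 to 30.3 CPM. Endothelial sums were uneven within P6, at 30.6 to 404 CPM, against 99.3 to 277 CPM in P5. Ttr, a gene of the liver list named after its values were seen, was at 3098, 12.64 and 22.98 CPM in P6. In P5 it was at 25.51, 8.843 and 274.6 CPM. The part of all these markers in the dural differences was not tested.

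MHC class II genes were higher in P6. Of 12, 10 rose and 0 fell (median 0.70). H2-Ab1 was at 16120, 16570 and 15590 CPM in P6, against 10720, 10950 and 10260 CPM in P5 and 966.8 to 1146 CPM in P4 (0.62 ± 0.06, edgeR adjusted p = 2.21e-05). The low class II level of dura P4 and that of diaphragm libraries 1 and 7 both lay far below the other libraries of the same tissue. Of 16 cell cycle genes, 15 rose and 0 fell in P6 (median 1.67), with Top2a at 85.74, 91 and 86.75 CPM in P6 against 15.74, 25.78 and 23.82 CPM in P5. Of 18 classical monocyte genes, 10 rose and 0 fell, and of 16 tested conventional dendritic cell genes 6 rose and 2 fell. Itgax was at 175.3, 206.1 and 159.8 CPM in P6, against 34.13, 34.62 and 26.29 CPM in P5 (2.54 ± 0.31, edgeR adjusted p = 0.000142).

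Further lists were read in dura. Of 16 interferon-stimulated genes, 1 rose and 1 fell in P6 (median -0.14), and Irf7 did not pass (0.37 ± 0.20, edgeR adjusted p = 0.238). Of 18 tested migratory dendritic cell genes, 1 rose and 3 fell. Of 14 complement genes, 7 fell and 1 rose (median -0.23). C4b fell to 41.66, 55.99 and 49.54 CPM in P6, against 408.4, 595.8 and 672.8 CPM in P5 (-3.49 ± 0.18, edgeR adjusted p = 1.65e-07), whereas C3 did not pass (-0.002 ± 0.27, edgeR adjusted p = 0.998).

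A few genes went opposite ways. Acp5, a lysosomal acid phosphatase also made by osteoclasts, was lower in diaphragm 3, 6 and 9 (53.69, 73.05 and 100.3 CPM against 305.5 and 357.5 CPM in 2 and 8) and higher in dura P6 (1.74, edgeR adjusted p = 9.76e-05). Fcgr4 was also lower in diaphragm 3, 6 and 9 and higher in P6 (0.75 ± 0.13, edgeR adjusted p = 0.00222). Helz2, a nuclear receptor coactivator induced by interferon, was at 31.18, 30.08 and 40.15 CPM in 3, 6 and 9 against 128.5 and 114.2 CPM in 2 and 8, and rose in P6 (2.27, edgeR adjusted p = 0.00113). These 3 were named after their values were seen, from the 22 genes called in opposite directions, and the difference between the tissues was not tested.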

How the data were processed

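RNA was taken from macrophages sorted in bulk from dura and diaphragm and sequenced as single-end reads with an unstranded kit, per the labels' protocols, which describe the dural preparation only. Per the submitters' processing notes, the genome build was GRCm38 and the tools were featureCounts, STAR 2.4.0j and DESeq2 1.20.0. The deposited table of 41388 genes holds whole-number counts made by the authors. Although its name calls it normalised, it was read as raw counts, because the column sums lie far apart and no value has a decimal.

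The 6 diaphragm columns with an added prefix differed from the column of the same number by little more than sampling noise (chi-square per degree of freedom of 1.008 to 1.169, against at least 11.43 in 72 other pairs) and were summed, giving 7 libraries. Levels are CPM with TMM factors, and log2 values carry a prior count of 2. Genes were kept by filterByExpr. A diaphragm gene counts as higher or lower where libraries 3, 6 and 9 do not overlap 2 and 8 and the mean log2 CPM differs by at least 1. Dura P6 was tested against P5 with edgeR 4.0.16 (R 4.3.3) over all 9 dural libraries, two-sided, with Benjamini-Hochberg adjustment at 0.05. The SE given is the absolute log2 fold change divided by the square root of the quasi-likelihood F, not a separately fitted value. The test was checked on simulated data. Alternatives were library totals, upper-quartile and RLE factors, other filters and prior counts, single runs, DESeq2 1.42.0, a replicate block and libraries left out in turn.

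The libraries compared, the gene lists, the marker genes and the comparison of P6 with P5 were chosen with earlier results of these data known. Named genes are the 12 highest and 12 lowest counted genes with at least 20 CPM in the higher group and a proper symbol, the 4 marker genes and up to 4 members of each list with the largest difference, besides those said to be named after their values were seen. Symbols were found for 40254 genes. Near-identical genes (Cd209, H2 and Ly6c families, C4b) may share reads, and without strand, reads of overlapping genes cannot be told apart. Reads carry no molecular identifiers, so low counts may be fewer molecules than they seem.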

Additional observations from a re-analysis of the deposited data

Results flagged for a closer look

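Across the 7 diaphragm libraries, total counts and the summed CPM of 38 gene lists were examined for a library far from the others. Of these 39 values 3 stood apart, all in library 7. For alike libraries the rule flags about 1 in 20 values by chance, so 3 of 39 is no clear excess. The 7 libraries also fall into sets that differ, which the rule does not allow for. None of the 3 flagged values concerns libraries 3, 6, 9, 2 or 8. Summed genes of large peritoneal macrophages were at 3080 CPM in library 7, with the next library at 2000 CPM. Most of the sum in library 7 was Fn1, at 1656 CPM and named after its value was seen, and Cxcl13, at 830.2 CPM. The defining gene Gata6 was lower in library 7 (18.94 CPM) than in library 1 (27.29 CPM). Summed mesothelial genes were at 44.1 CPM in library 7, with the next at 17 CPM. Summed erythroid genes were at 24.3 CPM there, with the next at 7.91 CPM.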

How the results depend on the processing

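The diaphragm counts of 833 higher and 1408 lower genes became 297 and 382 when the higher group had to reach a mean of 20 CPM and 331 and 721 with a difference of at least 2. They stayed within 1.5 times of these numbers with RLE factors, upper-quartile factors, library totals, no filter, prior counts of 0.5 and 5 and single runs. With 1 library left out they ranged from 1009 to 1161 higher and from 1597 to 2413 lower, where a smaller group overlaps less by construction. Library totals shifted the median difference over all genes to -0.12, against -0.07 with TMM factors, and upper-quartile factors to -0.01. The dural calls (1110 higher, 1189 lower) ranged from 692 to 982 and from 775 to 1066 with 1 library left out, where fewer samples enter. The genes higher in both comparisons ranged from 205 to 250 and the genes lower in both from 269 to 330 then, while those of opposite direction ranged from 3 to 8 and from 12 to 16, and DESeq2 gave 24 genes in place of 14. Deviations of P6 and P5 libraries of the same dural number correlated at -0.005, 0.16 and 0.012 over all genes tested. Pairs of different numbers lay between -0.176 and 0.132. No block was used in the main test, but correlations over all genes cannot show that the numbers do not pair the libraries. With a replicate block on that number 1472 genes were higher and 1598 lower, and the genes shared with the diaphragm were 302 higher and 385 lower.

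For single genes, 1483 of 1551 diaphragm differences under alternatives moved by less than 1 SD, 68 moved by more and 0 changed sign among counted genes. In dura, 1440 of 1535 gene values stayed on the same side of the threshold. Changes of direction were counted only where the main or the alternative value passed it, so the 1440 include values that changed sign without passing. Vwf, at 0.31 with edgeR, ranged from -2.71 without P6 number 3 (edgeR adjusted p = 0.0247) to 0.86 without P6 number 1, and the cause was not tested. Library 6, with 11053351 counts, limits low genes most. With 3 against 2 libraries chosen on their values, no p-value can be attached to the diaphragm differences.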

Other observations

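The 2 near-empty diaphragm columns, left out of every comparison, held a few counts of the genes described here. Column 4 held 3 counts of Clec4f, 5 of Cd5l, 1 of Vsig4, 1 of Marco and 2 of Ccr2 among 2115 counts. Column 5 held 5 counts of Clec4f, 1 of Cd5l, 1 of Vsig4, 0 of Marco and 0 of Ccr2 among 1496. Apoe had 30 counts in each, and Cd74 had 38 in column 4 and 16 in column 5. At this depth the levels of these genes could not be compared with those of the other libraries.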
